A study of Mus musculus with 9 samples.

Results

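Oxidative phosphorylation in 4T1 cells, a mouse mammary carcinoma line, was examined through the 84 nuclear genes among 24067 in the FPKM table whose symbols name subunits of complexes I to V of the inner mitochondrial membrane. They were taken by symbol alone: Nduf genes of the A, B, C, S and V series for complex I (NADH dehydrogenase, 37 genes), Sdha to Sdhd for complex II (succinate dehydrogenase, 4 genes), Uqcr genes for complex III (cytochrome bc1, 8 genes), Cox4 to Cox8 genes for complex IV (cytochrome c oxidase, 18 genes) and Atp5 genes for complex V (ATP synthase, 17 genes). Complexes I, III and IV pump protons as electrons pass to oxygen, complex II feeds in electrons from succinate, and complex V uses the proton gradient to make ATP. Subunits of I, III, IV and V come from both the nuclear and the mitochondrial genome, and several nuclear subunits of complex IV exist in ubiquitous and in tissue-restricted isoforms.

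In all, 9 libraries of polyadenylated RNA were sequenced, 3 each titled control, clone 2 and clone 3. All 3 groups are 4T1 cells given a plasmid, a control plasmid in the first group and one overexpressing miR-204-5p in the clones, which were selected with Zeocin and exceed the control by 150-fold (clone 2) and 525-fold (clone 3) in miR-204-5p on average, per the labels. Each clone is thus 1 selected line, so a difference between titles cannot be told apart from one between clones. Each title group holds 1 library of each code given in the descriptions, NTC, C-20 and C-26, whose meaning the labels do not give, and the authors' deposited comparisons follow the codes. Every pairing of a title with a code is thus a single library. Whether the 3 libraries of a title are independent cultures is not stated, and p-values measure only the spread between libraries, which may be technical. FPKM sums ran from 439018.1 to 560091.9 per library, relative depth from 0.897 to 1.152 of the mean, and genes above 0 from 14883 to 18283. Absolute depth is unknown. Of 1453 olfactory and vomeronasal receptor genes, 1.03% to 16.45% were above 0, with the highest share in clone 2 C-26. All 7 epithelial markers were expressed, with a summed level of 362 to 1549 FPKM, while 6 of 7 fibroblast, 5 of 6 leukocyte, 4 of 4 endothelial and 5 of 6 muscle markers stayed under 1 FPKM in every library. The precursor gene Mir204 was listed at 0 FPKM in all 9 libraries, so it does not check the titles. Bulk RNA cannot tell fewer cells of a kind from less RNA per cell.

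The miRNA that defines the titles pairs with targets through its seed. Its mature sequence is given from RefSeq (GRCm38.p6, chr19:22750610-22750631, plus strand), with the seed, bases 2 to 8, in capitals.
mmu-miR-204-5p: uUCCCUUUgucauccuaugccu
The DNA letters complementary to the seed, AAAGGGA, were present in the longest annotated 3′ UTR of 4 of the 77 tested subunits (5.19%) and of 16.8% of 10404 tested genes. Those 3′ UTRs were short, with a median of 289 nt against 1364 nt, and held 0.103 matches per kb against 0.114 per kb. The 4 genes were Ndufa11, a membrane-arm subunit of complex I, Sdhc, a membrane anchor of complex II, and the complex IV subunits Cox5a and Cox6a1. The letters around each match, with the match in capitals, show which subunits the overexpressed miRNA could pair with by this criterion.
Ndufa11: tctcttgagttAAAGGGAttgatgcaggg
Sdhc: gaaatctgtagAAAGGGAttcaccattta
Cox5a: tggactttaatAAAGGGAaatgagtttga
Cox6a1: ccccaggcaacAAAGGGAccacagcactg
None of the 4 was called in clone 2 or in clone 3 against control, and Ndufa11 was called higher in clone 3 against clone 2 (0.59 ± 0.17 (SE), adjusted p = 0.0334). Against control, their log2 changes ran from −0.25 (Sdhc) to 0.03 (Cox6a1) in clone 2 and from 0.21 (Sdhc) to 0.48 (Cox5a) in clone 3.

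Upstream sequence was compared through 3 motifs of factors known to act on respiratory genes: CGCATGCG for NRF1, CCGGAAG for the ETS family, to which GABPA belongs, and AAGATGGCG for YY1. Both strands were searched over the 250 bases before each RefSeq start (GRCm38.p6). The NRF1 letters read the same on both strands, and the ETS and YY1 letters can overlap by AAG. Of the 84 genes, 69 matched the promoter table. The NRF1 letters were present for 7 of the 69 (10.1%), against 3.95% of 8682 tested genes and 1.75% of all 27025 genes with a promoter. The ETS letters were present for 12 (17.4%), against 17.3% of tested and 7.83% of all genes, and the YY1 letters for 2 (2.90%), against 1.53% and 0.71%. Promoters of 4 genes are shown because their genes carry results described further on: Uqcrh, Uqcr11 and Atp5k rose together in C-26 libraries, and Cox6a1 is the isoform partner of Cox6a2. All 4 lie on the minus strand and are written 5′ to 3′ up to the base before the start, with motif letters in capitals.
Uqcrh (chr4:116075071-116075320): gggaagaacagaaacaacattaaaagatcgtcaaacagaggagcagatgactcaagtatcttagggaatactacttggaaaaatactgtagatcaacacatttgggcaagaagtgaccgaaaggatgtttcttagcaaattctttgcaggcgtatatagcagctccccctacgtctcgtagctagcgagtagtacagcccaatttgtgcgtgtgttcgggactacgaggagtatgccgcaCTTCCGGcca
Uqcr11 (chr10:80406822-80407071): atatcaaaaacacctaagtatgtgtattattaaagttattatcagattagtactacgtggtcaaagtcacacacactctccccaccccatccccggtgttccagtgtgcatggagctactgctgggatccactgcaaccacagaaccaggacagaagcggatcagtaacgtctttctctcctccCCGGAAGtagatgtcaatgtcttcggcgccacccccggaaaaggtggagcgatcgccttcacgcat
Atp5k (chr5:108434400-108434649): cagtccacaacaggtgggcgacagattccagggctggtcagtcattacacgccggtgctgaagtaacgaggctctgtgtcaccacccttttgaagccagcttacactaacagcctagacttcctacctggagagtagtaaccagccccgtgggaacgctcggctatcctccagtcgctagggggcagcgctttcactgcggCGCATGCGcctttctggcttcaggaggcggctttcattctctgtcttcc
Cox6a1 (chr5:115348959-115349208): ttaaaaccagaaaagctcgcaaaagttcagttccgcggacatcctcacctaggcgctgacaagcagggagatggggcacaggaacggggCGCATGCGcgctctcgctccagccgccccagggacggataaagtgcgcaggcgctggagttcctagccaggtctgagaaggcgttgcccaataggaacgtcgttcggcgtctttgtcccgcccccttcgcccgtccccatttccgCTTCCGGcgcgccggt
Uqcrh and Uqcr11 hold the ETS letters, beginning 10 and 66 bases before the start, and Atp5k holds the NRF1 letters, beginning 49 bases before it. Cox6a1 holds both, the NRF1 letters from 161 and the ETS letters from 16 bases before the start. The 3 genes that rose together thus shared no 1 motif of the 3 in this window, and a match is a description, not a binding site.

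Subunit mRNAs were abundant. Of the 84 genes, 77 reached at least 1 FPKM in 3 or more libraries and were tested (36, 4, 8, 12 and 17 of complexes I to V), with a median level of 101 FPKM against 12.4 FPKM for all 10783 tested genes. FPKM is scaled by length, and levels are compared between genes on that scale. Subunit transcripts were short, with a median of 765 nt against 3002 nt, and the effect of this on the levels was not tested. The highest was Atp5b, the catalytic beta subunit of ATP synthase, at a mean of 1054 FPKM over 9 libraries, followed by Cox8a at 709 FPKM and Ndufb9 at 695 FPKM. Within complex I the level ran down to 13.1 FPKM for Ndufa11. Complex II was narrow, from 61.8 FPKM for the flavoprotein Sdha to 129 FPKM for the iron-sulfur subunit Sdhb. In complex III it ran from 62.6 FPKM for the Rieske protein Uqcrfs1 to 289 FPKM for Uqcrq. The lowest of complex IV was Cox6a2 at 5.06 FPKM and the lowest of complex V Atp5s at 3.24 FPKM. Neither Atp5s (Dmac2l) nor Atp5sl (Dmac2, 10.1 FPKM) is a stalk or ring subunit despite its symbol, and Ndufa4 (437 FPKM), counted under complex I by its symbol, is now assigned to complex IV.

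In most isoform pairs the ubiquitous form was expressed and the other was near 0. The 7 genes that did not pass the filter were Cox4i2, Cox6b2, Cox7a1, Cox7b2, Cox8b and Cox8c of complex IV and Ndufa4l2, all at 0.474 FPKM or less in every library, with Cox8c at 0 in all 9. These are forms known from lung, testis, heart or skeletal muscle, or from hypoxic cells. Their partners averaged 454 FPKM (Cox4i1), 318 FPKM (Cox6b1), 132 FPKM (Cox7a2), 57.3 FPKM (Cox7b), 709 FPKM (Cox8a) and 437 FPKM (Ndufa4). Cox7a2l, a relative of Cox7a2 that joins supercomplexes, averaged 152 FPKM. The c-ring of ATP synthase was supplied by all 3 of its genes, which encode the same mature protein: Atp5g2 averaged 432 FPKM, Atp5g3 307 FPKM and Atp5g1 186 FPKM. The exception was Cox6a2, the heart and skeletal muscle isoform, which was expressed beside Cox6a1. In the NTC, C-20 and C-26 libraries it measured 15.1, 0.147 and 0.380 FPKM under the control title, 10.5, 10.3 and 1.52 FPKM under clone 2 and 5.96, 1.29 and 0.330 FPKM under clone 3. It was thus highest in control NTC, both other NTC libraries and clone 2 C-20, and its groups by title overlapped. Cox6a1, its ubiquitous partner, stayed between 304 and 518 FPKM. Among muscle markers, Tnnt2 reached 74.6 FPKM and the other 5 stayed under 1 FPKM. The exons of Cox6a2 overlap those of Itgad on the other strand, and Itgad reached at most 0.0127 FPKM.

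Summed over all 84 genes, the subunits took 2.87% to 2.95% of all FPKM under the control title, 2.38% to 2.78% under clone 2 and 2.74% to 3.17% under clone 3. Complex I summed to 3987 ± 367 FPKM in control, 3377 ± 206 FPKM in clone 2 and 4217 ± 518 FPKM in clone 3 (SD, n = 3). For complex V the sums were 4297 ± 440, 3701.0 ± 247 and 5495 ± 625 FPKM, in the same order. In each of the 5 complexes, every library titled clone 3 lay above every library titled clone 2. The ratio of means was 1.25 for complex I, 1.35 for II, 1.45 for III, 1.27 for IV and 1.48 for V. Every control library also lay above every clone 2 library in all 5, with ratios of clone 2 to control of 0.76 to 0.91. Clone 3 overlapped the control in complexes I, III and IV. These sums are not scaled to library totals. The totals ran from 445115 to 474331 FPKM in clone 2 and from 500547 to 560092 FPKM in clone 3. As a share of all FPKM the clones overlapped, at 2.78% in clone 2 C-26 against 2.74% in clone 3 NTC. Clone 3 C-20 was the highest library for 38 of the 77 tested genes, and control NTC was the highest for 27 and the lowest for 8. For comparison, over all tested genes these libraries were the highest for 17.4% and 17.3%. Control NTC was the lowest for 29.1% of all tested genes, against 10.4% of the subunits. Uqcrq, a small subunit of complex III, stood out in control NTC, at 639 FPKM there against 203 to 306 FPKM in the other 8 libraries.

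**Figure D1:**
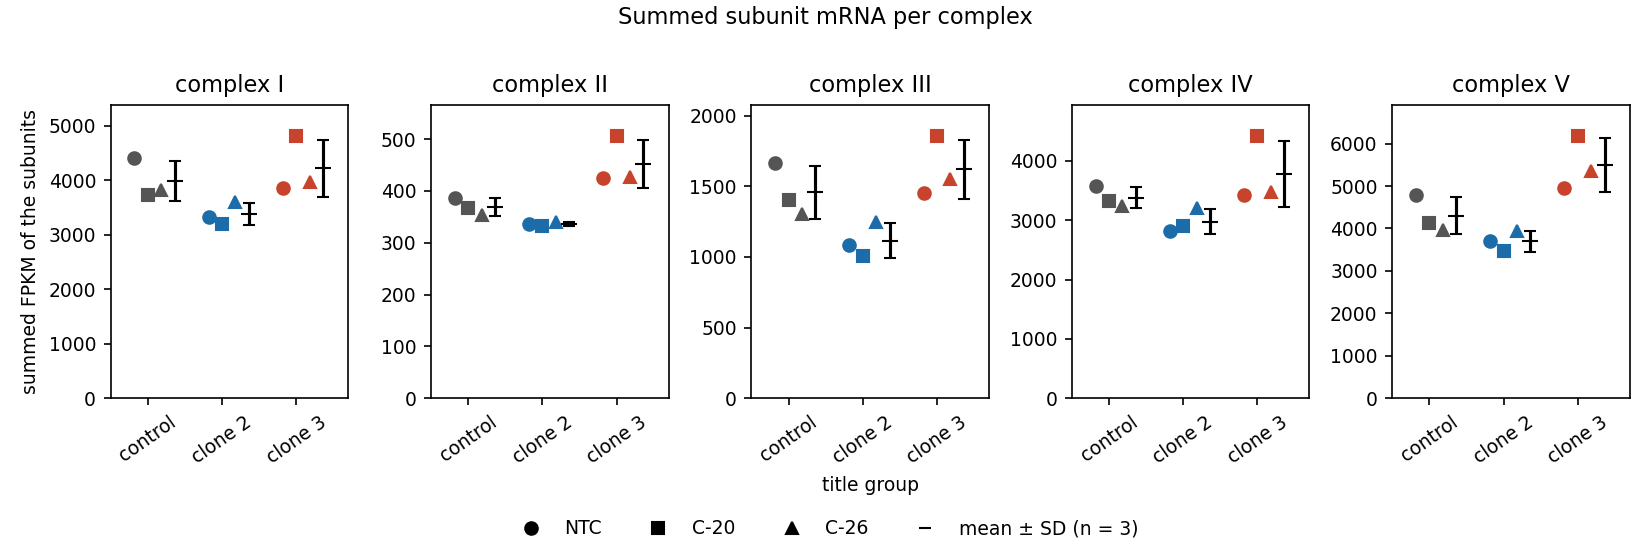
Summed FPKM of the subunits of each complex (vertical axis, from 0) by title group, with 1 point per library, the marker giving the code, and the mean ± SD of 3 libraries beside the points. Libraries titled clone 3 and those titled control sit above those titled clone 2 in all 5 panels. Clone 3 C-20 is the highest library in each, and sums are not scaled to the library total.

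**Figure D2:**
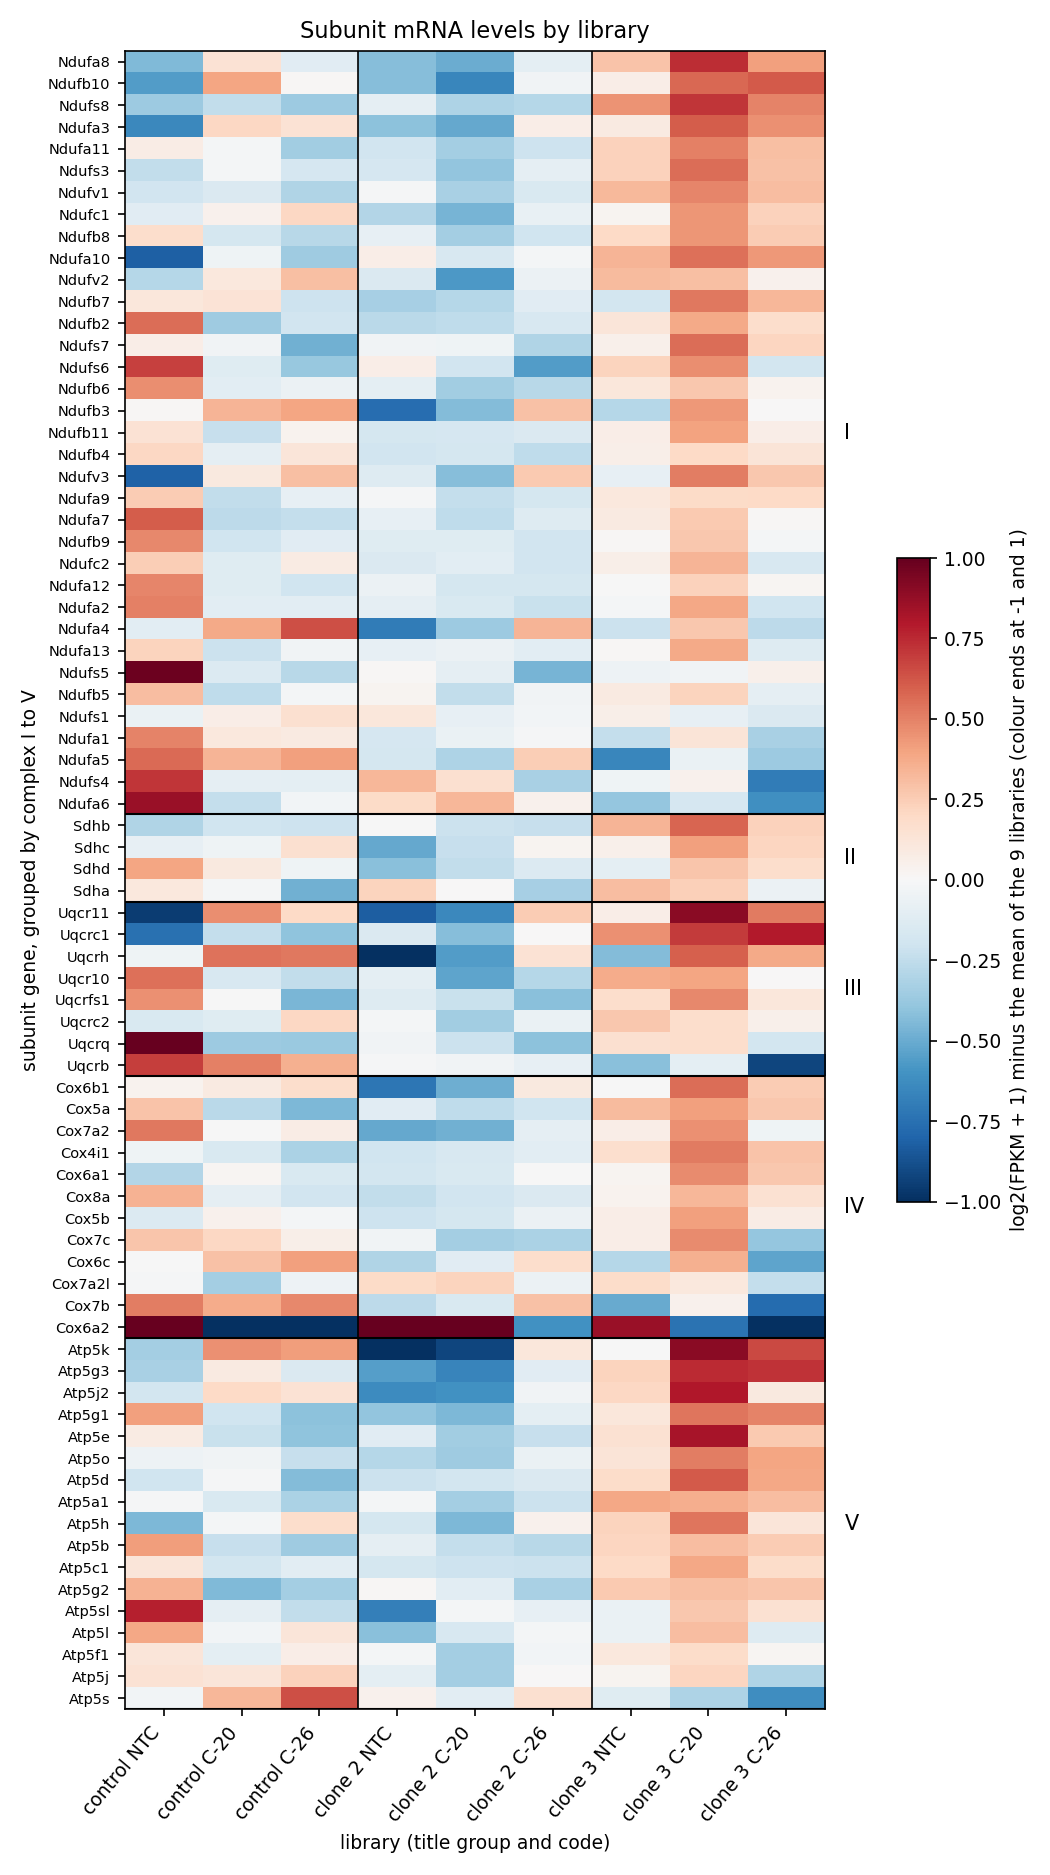
Levels of tested subunits in the 9 libraries, as log2(FPKM + 1) minus the gene's mean over the libraries, with rows grouped by complex and ordered by the change of clone 3 against clone 2. Clone 3 C-20 is above the mean (red) for most genes and clone 2 C-20 below it (blue), and Uqcrb and Cox7b are highest under the control title. Colours end at −1 and 1.

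Pairs of tested subunits resembled each other across the 9 libraries with a median Pearson correlation of 0.42 over 2926 pairs. For pairs of different complexes the median was 0.43 over 2060 pairs. For pairs within a complex it was 0.40 in I, 0.36 in II, 0.14 in III, 0.31 in IV and 0.56 in V. These are descriptions over libraries that share titles and codes. Among the genes most like Uqcrc1 were Ndufa10 (0.94) and Ndufs8 (0.94), and Uqcr11 was most like Ndufa3 (0.98), Ndufb10 (0.94) and Atp5k (0.91).

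Clone 3 against clone 2 compared the clone of higher with that of lower miR-204-5p. In this comparison 14 of the 77 subunits rose and 0 fell (limma on log2(FPKM + 1), adjusted over 10783 genes, called below 0.05), 18.2% against a background of 6.03% of genes called higher and 12.8% called lower. In all, 66 of 77 changes were above 0, with a median of 0.40 against 0.04 over all tested genes. By complex, 6 of 36 rose in I, 1 of 4 in II, 1 of 8 in III, 0 of 12 in IV and 6 of 17 in V, and the medians were 0.35, 0.42, 0.54, 0.35 and 0.49. All 14 were higher in each of the 3 pairs of libraries that share a code, a description of genes picked from these same libraries. With the authors' quantile-normalized values the split was 4 higher and 1 lower.

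Among the complex I genes that rose, Ndufs8, Ndufs3 and Ndufv1 belong to the 7 nuclear core subunits, conserved from bacteria, which carry electrons from NADH to ubiquinone. Ndufs8, which holds iron-sulfur clusters, measured, in NTC, C-20 and C-26, 62.5, 67.8 and 62.3 FPKM under the control title, 75.8, 64.8 and 66.0 FPKM under clone 2 and 110.2, 133 and 114 FPKM under clone 3. Each clone 3 library exceeded the 6 others, and the change over clone 2 was 0.78 ± 0.14 (SE), adjusted p = 0.0053. For Ndufa8, an accessory subunit of the intermembrane space side, the levels were 51.5, 78.0 and 65.2 FPKM under the control title, 52.1, 49.6 and 65.6 FPKM under clone 2 and 86.2, 118 and 93.7 FPKM under clone 3. Its clone 3 libraries were again the highest, with a change of 0.82 ± 0.20 (SE), adjusted p = 0.0195.

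In complex III, Uqcrc1, a core protein that faces the matrix, rose. Its levels were 138, 197 and 175 FPKM under the control title, 210.3, 172 and 232 FPKM under clone 2 and 319, 379 and 403 FPKM under clone 3. All 3 clone 3 libraries lay above the other 6, and the change over clone 2 was 0.84 ± 0.19 (SE), adjusted p = 0.0134. In complex II the electron carrier Sdhb rose, from 114 ± 10.2 to 165 ± 21.1 FPKM (SD, n = 3), by 0.54 ± 0.15 (SE), adjusted p = 0.0334. Sdha, Sdhc and Sdhd did not pass the test, at log2 changes of 0.20, 0.46 and 0.39.

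Complex V gave as many calls as complex I from fewer genes: Atp5k, Atp5g3, Atp5j2, Atp5o, Atp5d and Atp5a1, which are subunits of the membrane sector (e, c, f), the peripheral stalk (OSCP), the central stalk (delta) and the catalytic head (alpha). Atp5g3, the c-ring gene, measured 232, 309.8 and 263 FPKM under the control title, 199, 183 and 269 FPKM under clone 2 and 339.6, 489 and 481 FPKM under clone 3. No clone 3 library overlapped clone 2, and the change was 1.01 ± 0.21 (SE), adjusted p = 0.0102. Atp5k varied most: 230.1, 401 and 390.5 FPKM under the control title, 119, 154 and 317 FPKM under clone 2 and 292, 545 and 461 FPKM under clone 3. Here clone 2 C-26 (317 FPKM) exceeded clone 3 NTC (292 FPKM), so the groups overlapped, and the change was 1.21 ± 0.38 (SE), adjusted p = 0.0482. Levels of Atp5j2 were 201, 262 and 253 FPKM under the control title, 147, 149.7 and 223 FPKM under clone 2 and 264, 398 and 243 FPKM under clone 3. The C-26 libraries of both clones lay close together, and the change was 0.79 ± 0.24 (SE), adjusted p = 0.042. The other c-ring genes, at log2 changes of 0.69 (Atp5g1, adjusted p = 0.0585) and 0.42 (Atp5g2, adjusted p = 0.19), did not pass. The 3 genes encode the same mature protein, and how reads were assigned among them was not tested.

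These calls depended on single libraries and were lost with a correction for transcript length and GC content together, without a block. Without clone 2 C-20, clone 3 C-20 or clone 3 C-26, 1 call was left each time, Ndufs8, without clone 2 NTC 5, and without control NTC 33. After that correction of each library, 2 subunits were called higher and 0 lower, against backgrounds of 4.23% and 4.46%. None of the 14 was among them: they were Ndufv2 (1.09 ± 0.19 (SE), adjusted p = 0.0103) and Uqcrc2 (0.62 ± 0.13 (SE), adjusted p = 0.0249), whose uncorrected changes were 0.48 and 0.31. A fit chosen after seeing the data added code as a replicate block to the correction. It called 6 subunits higher and 1 lower (Ndufa6, −0.92), 7.79% and 1.30% of the 77, beside 951 genes higher and 937 lower of 10708. Of the 14, Ndufs8 (0.41), Atp5g3 (0.78) and Atp5k (0.82) were among the 6.

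**Figure D3:**
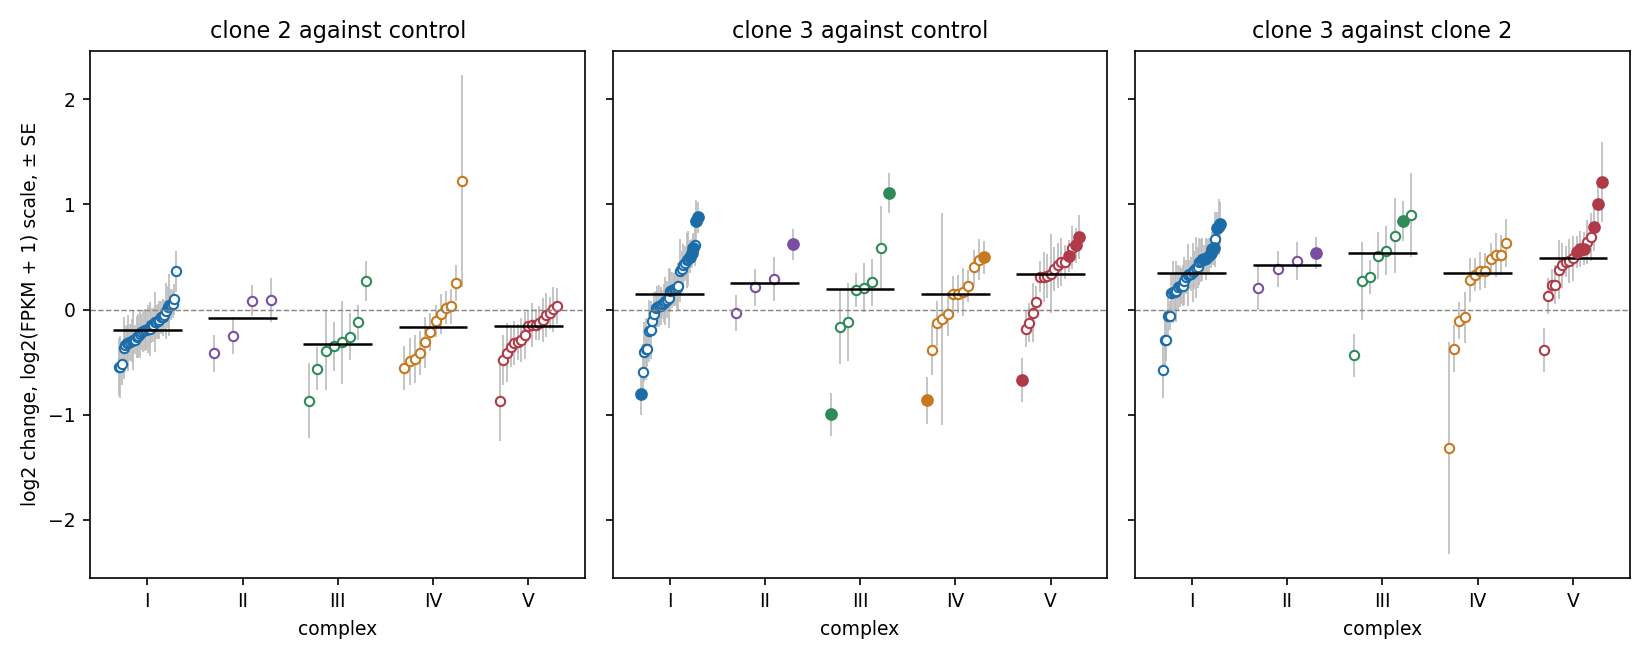
Log2 change of each tested subunit with its SE, by complex, in the 3 title comparisons. Filled points passed the test, open points did not, and black lines are the medians. Clone 2 against control has no filled point, and clone 3 has 4 filled points below 0 against control and 0 against clone 2.

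Against control, clone 3 showed changes in both directions. Of 77 subunits, 11 rose (14.3%, background 7.44%) and 4 fell (5.19%, background 13.2%), with a median of 0.19 against 0.09 over all tested genes. This comparison shares the clone 3 libraries with the one above, and 9 genes rose in both, among them Atp5a1, Atp5d, Atp5g3, Ndufs3, Ndufs8, Ndufv1, Sdhb and Uqcrc1. The other 2 were Ndufa10, an accessory subunit of complex I, and Cox4i1, the ubiquitous form of the complex IV subunit that binds regulatory nucleotides. By complex, 5 of 36 rose in I, 1 of 4 in II, 1 of 8 in III, 1 of 12 in IV and 3 of 17 in V, and 1 fell in each of I, III, IV and V. The split was 4 higher and 3 lower with the authors' quantile-normalized values, where the median was 0.015, and 5 and 3 when the fit held only the control and clone 3 libraries. Epithelial markers differed too: their summed level was 362 to 1145 FPKM in control, lowest in control NTC, and 1184 to 1549 FPKM in clone 3, and their part in these results was not tested.

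On the log2 scale, Uqcrc1 rose by 1.11 ± 0.19 (SE), adjusted p = 0.003. Ndufs8 rose by 0.88 ± 0.14 (SE), adjusted p = 0.0026. Smaller changes were those of Atp5g3 (0.69 ± 0.21), Sdhb (0.62 ± 0.15) and Atp5d (0.61 ± 0.17). For Sdhb the control libraries averaged 107 ± 4.04 FPKM (SD, n = 3). Ndufa10 measured 39.2, 67.8 and 54.5 FPKM under the control title, 73.1, 62.4 and 68.8 FPKM under clone 2 and 88.7, 103 and 94.8 FPKM under clone 3. It was lowest in control NTC and highest in the 3 clone 3 libraries, with a change of 0.85 ± 0.20 (SE), adjusted p = 0.0141.

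The genes that fell were Uqcrb, Ndufa5, Cox7b and Atp5s. Uqcrb, a small complex III subunit at the ubiquinone site, measured 192, 168 and 152 FPKM under the control title, 117, 116 and 112 FPKM under clone 2 and 88.4, 111 and 62.2 FPKM under clone 3. All 3 control libraries lay above all 6 clone libraries, and the change of clone 3 against control was −0.997 ± 0.21 (SE), adjusted p = 0.0082. Ndufa5, an accessory subunit of the matrix arm, measured 72.2, 61.3 and 64.7 FPKM under the control title, 42.7, 38.9 and 57.5 FPKM under clone 2 and 30.3, 46.1 and 37.3 FPKM under clone 3. All clone 3 libraries lay below all control libraries, with a change of −0.80 ± 0.20 (SE), adjusted p = 0.019. Cox7b, a small subunit of complex IV, measured 78.5, 71.2 and 76.8 FPKM under the control title, 45.5, 49.3 and 67.6 FPKM under clone 2 and 38.3, 56.7 and 31.7 FPKM under clone 3. Clone 3 again lay wholly below the control, and the change was −0.86 ± 0.23 (SE), adjusted p = 0.0235. Atp5s changed by −0.67 ± 0.21 (SE), adjusted p = 0.0463, and this direction turned to 0.50 (adjusted p = 0.124) after the length and GC correction. GC content was 39.0% for Atp5s, 42.0% for Cox7b, 42.2% for Uqcrb and 50.3% for Ndufa5, within a range of 39.0% to 61.1% and a median of 51.6% over the 77 subunits.

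Across the 77 subunits the change of clone 3 against control followed GC content, with a Pearson correlation of 0.58 and a Spearman correlation of 0.54, given as a description over genes that share the same libraries. The median change was 0.04 in the 25 genes of lowest GC (39.0% to 49.1%), 0.16 in the 26 of middle GC and 0.43 in the 26 of highest GC (53.8% to 61.1%), and 14, 16 and 25 of them were above 0. Against clone 2 the correlation was 0.39. Subunit transcripts were also short, with a median of 765 nt against 3002 nt over tested genes, and 49 of 77 were under 1000 nt against 6.40% of all. After correction for both properties, 4 rose and 1 fell against control, with backgrounds of 3.16% and 4.79%. Uqcrc1 (0.69 ± 0.15), Ndufs8 (0.48 ± 0.12) and Ndufa5 (−0.96 ± 0.17) were called in both fits, with Ndufv2 and Uqcrc2 added. Uqcrb and Cox7b were no longer called, at −0.25 and −0.15. Without clone 3 C-26 4 subunits were called, without clone 3 C-20 or control C-26 5 each, and without clone 2 C-20 9, against 15 with all libraries. Uqcrc1, Ndufs8 and Uqcrb stayed called when any 1 library was left out.

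**Figure D4:**
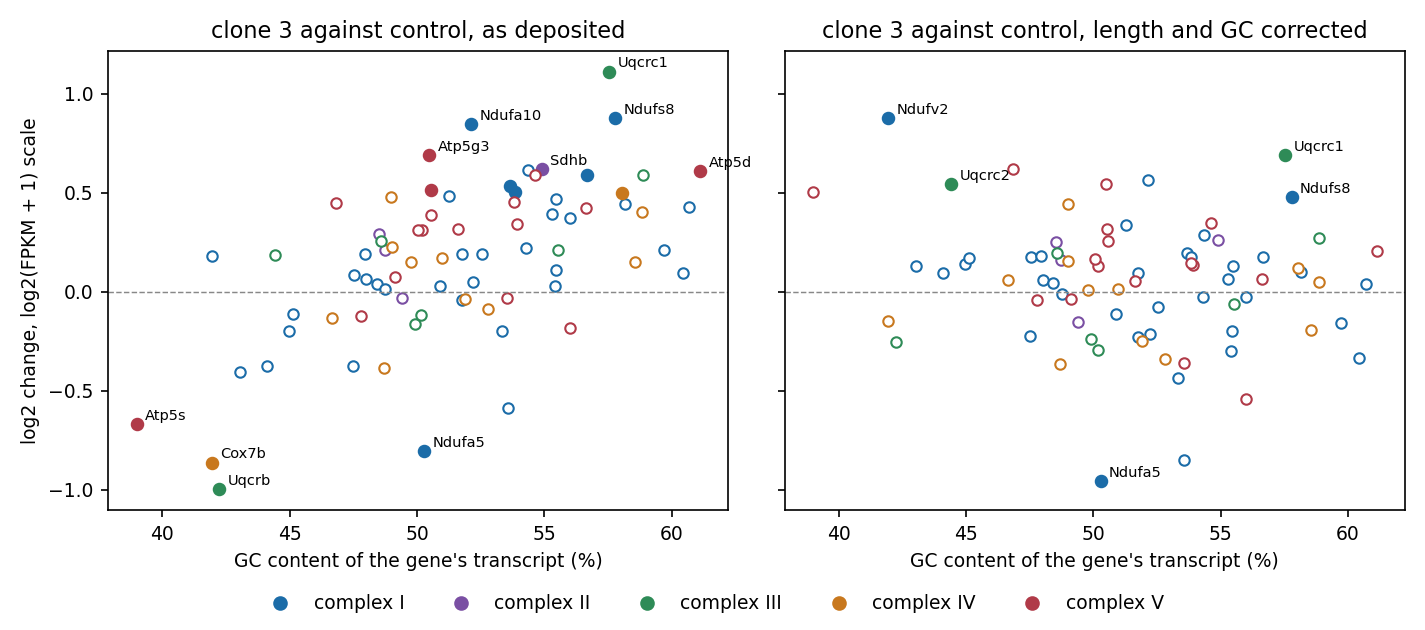
Log2 change of clone 3 against control for the 77 tested subunits by GC content of the transcript, for the FPKM values as deposited (left) and after length and GC correction of each library (right). Filled points passed the test and open points did not. The points of the left panel slope upward (Pearson correlation 0.58), and Uqcrc1, Ndufs8 and Ndufa5 are filled in both panels.

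Clone 2 against control gave 0 calls among 77 subunits, as it did over all 10783 genes (background 0%), in limma at the same threshold, with 6 subunits and 949 genes at an unadjusted p under 0.05. Changes were above 0 for 15 of 77, with a median of −0.20 against 0.02 over all genes. The 6 were Uqcrb (−0.56), Cox7a2 (−0.56), Ndufa5 (−0.52), Uqcrh (−0.87), Sdhd (−0.42) and Atp5k (−0.87), all lower in clone 2, with adjusted p from 0.487 to 0.548. The within-code medians were −0.31 for NTC, −0.18 for C-20 and −0.05 for C-26, so the NTC pair, with the control NTC library described above, was the most different and the C-26 pair the least. Without control NTC, which left control C-20 and C-26 against all clone 2 libraries, the median change over the subunits moved to −0.09.

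By code, the libraries were compared across all 3 titles. C-20 against NTC gave 0 calls among 77 subunits, against 0.0185% of all genes, and 0 with the title group as a block, against 0.306%. At an unadjusted p under 0.05 there were 1 and 4 subunits, beside 834 and 2259 of all 10783 genes. The 4 were Uqcrh (0.74), Uqcr11 (0.81), Atp5k (0.69) and Cox6a2 (−1.81), with adjusted p from 0.102 to 0.137 in limma. These same genes had the same signs in C-26, where they were called with the block, as described below. The median change over the 77 subunits in C-20 was 0.01, but it differed by title: −0.14 in control, −0.10 in clone 2 and 0.30 in clone 3, where 69 of 77 subunits were higher in C-20. C-26 against NTC also gave 0 calls without the block, against 0.139% of all genes. Here 6 of 77 subunits and 1794 of 10783 genes had an unadjusted p under 0.05. The titles pair the libraries, since same-title libraries deviated together in all 9 cases, and with the title group as a block 3 subunits rose and 4 fell, 3.90% and 5.19% of the 77 against backgrounds of 6.75% and 7.36%. In the authors' deposited table, the smallest adjusted p over the 77 subunits was 0.911 for C-20 and 0.554 for C-26.

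The 3 that rose in C-26 were small subunits: Uqcrh, which bridges cytochrome c1 and cytochrome c, Uqcr11, the smallest of complex III, and Atp5k. Uqcrh measured, in NTC, C-20 and C-26, 159.7, 239.9 and 237 FPKM under the control title, 72.8, 112 and 182 FPKM under clone 2 and 121, 249 and 214 FPKM under clone 3. In each title C-26 lay above NTC, by 0.57, 1.31 and 0.82 on the log2 scale in control, clone 2 and clone 3, and the blocked change was 0.90 ± 0.20 (SE), adjusted p = 0.0215. Levels of Uqcr11 were 109, 291 and 242 FPKM under the control title, 118, 135 and 251 FPKM under clone 2 and 220.3, 395 and 303 FPKM under clone 3. Control NTC, clone 2 NTC and clone 2 C-20 formed the low end, and the blocked change was 0.90 ± 0.25 (SE), adjusted p = 0.0439. Atp5k, whose levels are given above, was low in the same libraries and changed by 0.94 ± 0.23 (SE), adjusted p = 0.0282. In the authors' deposited table the folds of C-26 over NTC were 2.01 for Uqcrh, 1.99 for Uqcr11 and 2.04 for Atp5k, none with an adjusted p under 0.554.

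The 4 that fell were Cox6a2, Ndufs4, Ndufs6 and Sdha. For Cox6a2 the differences within titles were −3.55, −2.18 and −2.39, and the blocked change was −2.71 ± 0.52 (SE), adjusted p = 0.0154. Ndufs4, an accessory subunit near the NADH-oxidising end of complex I, measured 38.8, 21.8 and 21.7 FPKM under the control title, 29.5, 26.2 and 18.4 FPKM under clone 2 and 22.6, 24.0 and 13.9 FPKM under clone 3. C-26 was the lowest library of each title, with a blocked change of −0.71 ± 0.18 (SE), adjusted p = 0.0341. Ndufs6, a zinc-binding neighbour of it, measured 129.7, 74.2 and 61.7 FPKM under the control title, 84.3, 70.4 and 54.4 FPKM under clone 2 and 94.2, 112 and 70.8 FPKM under clone 3. It showed the same order in control and clone 2, with a blocked change of −0.70 ± 0.19 (SE), adjusted p = 0.0394. Sdha, the succinate-oxidising flavoprotein, measured 65.8, 60.2 and 43.5 FPKM under the control title, 71.3, 61.0 and 48.1 FPKM under clone 2 and 75.8, 72.2 and 58.5 FPKM under clone 3. Its change was −0.50 ± 0.14 (SE), adjusted p = 0.0388. The authors' deposited table gives signed folds, negative for lower, of −6.86 for Cox6a2, −1.56 for Ndufs4, −1.50 for Ndufs6 and −1.33 for Sdha. Ndufs6 overlaps Mrpl36 on the other strand, which ran from 17.6 to 50.1 FPKM, and the labels do not say that strand was kept, so their reads cannot be told apart.

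All 7 kept their direction in each of the 3 titles, in the same libraries from which they were picked. With the length and GC correction the blocked fit called 959 genes higher and 917 lower of 10708. The 7 stayed called in it, and Ndufb3 and Ndufa4 were also called higher. None was called without control C-26, without clone 2 C-26 or without the clone 3 title, 1 (Cox6a2) without clone 2 NTC, and 3 each (Uqcrh, Atp5k and Cox6a2) without control NTC and without clone 3 C-20. The C-26 libraries also differed in markers of cell state: with the block, Krt8 and Krt19 were called higher and Cldn3 lower of 7 epithelial markers, and Pdgfra of the fibroblast and Cd68 of the leukocyte list were called higher. The summed fibroblast list ran from 1.48 to 3.72 FPKM in NTC and from 4.70 to 8.07 FPKM in C-26, and the leukocyte list, with Cd3e at 0, from 4.60 to 6.36 and from 7.48 to 11.4 FPKM. The part of these in the subunit changes was not tested.

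**Figure D5:**
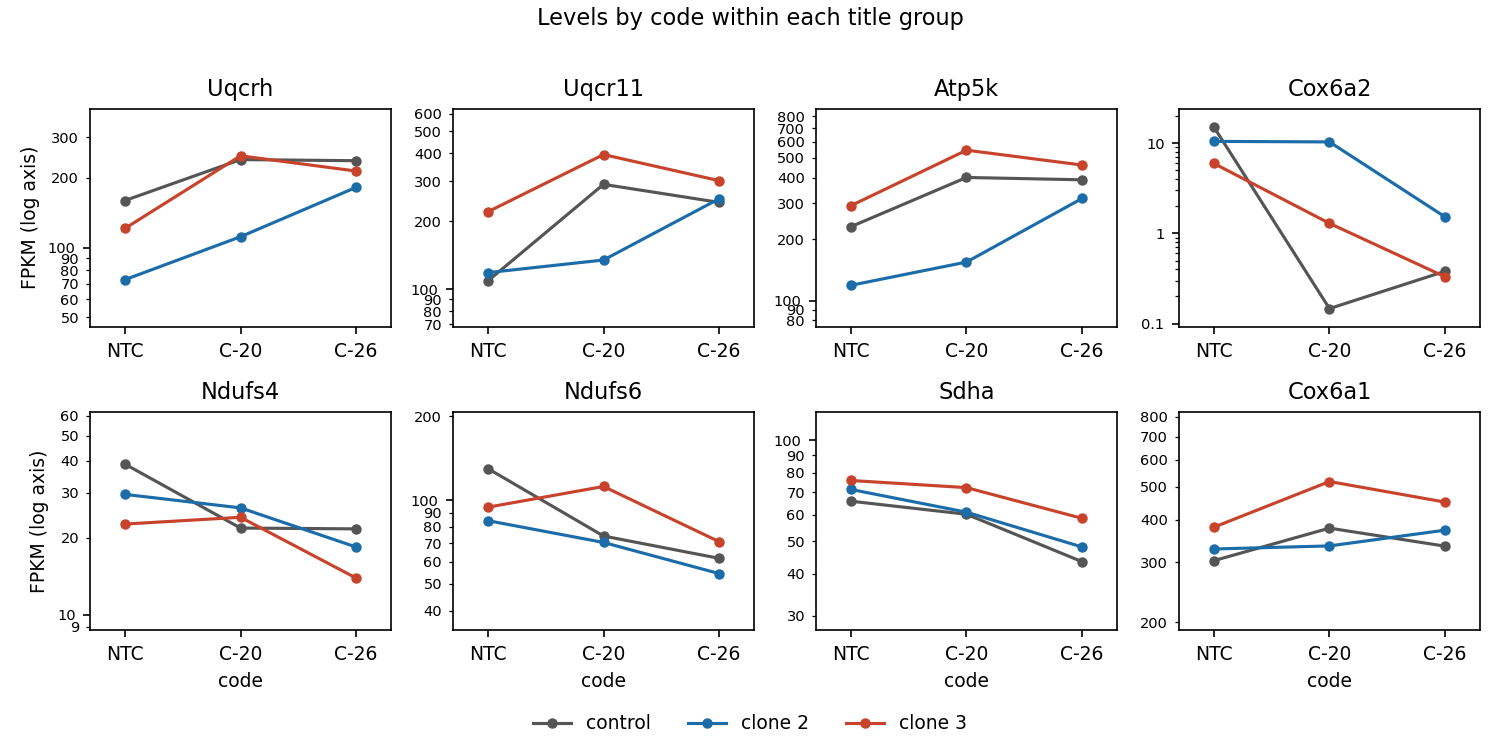
FPKM (log axis, a scale of its own per panel) of the 7 subunits called in C-26 against NTC with the title group as block, and of Cox6a1, by code, with 1 line per title group and 1 library per point. In each title C-26 lies above NTC for Uqcrh, Uqcr11 and Atp5k and below it for Cox6a2, Ndufs4, Ndufs6 and Sdha, while Cox6a1 stays within 304 to 518 FPKM.

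Genes that build, supply or regulate the chain were read from lists of related genes. Cyc1, the cytochrome c1 subunit of complex III that the symbol rule leaves out, rose in clone 3 against control (0.62 ± 0.18 (SE), adjusted p = 0.0371) and against clone 2 (0.60 ± 0.18 (SE), adjusted p = 0.0445), 1 of 8 tested subunits and carriers outside the rule. With the length and GC correction 0 of the 8 were called in either comparison, and Cyc1 was at 0.23 (adjusted p = 0.535) and 0.28 (adjusted p = 0.432). Cyc1 measured 127, 103 and 85.3 FPKM under the control title, 126, 96.6 and 96.0 FPKM under clone 2 and 152, 166 and 164 FPKM under clone 3. The 13 mitochondrially encoded subunits were not analysed here. Of assembly factors in clone 3 against control, 1 of 14 for complex I rose (Ecsit, 0.55) and 1 fell (Tmem126b, −0.72), and 1 of 10 for complexes II and III fell (Acn9, known as Sdhaf3, −0.92). For complex IV, 1 of 21 rose (Cox18, 0.60), and for complex V 0 of 3 were called. Against clone 2, Sdhaf1 (0.67) and Coa3 (0.75) rose, and Acn9 (−0.92) and Ttc19 (−0.69) fell. Over all genes, 7.44% were called higher and 13.2% lower against control, and 6.03% and 12.8% against clone 2. None of these assembly factors was called with the length and GC correction, where Acn9 was at 0.16 against control and 0.13 against clone 2. The correction called Nubpl and Cox16 higher in both comparisons.

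Of 15 genes of the citrate cycle and pyruvate dehydrogenase, which supply NADH and succinate, 3 rose and 1 fell in each clone 3 comparison (backgrounds of 7.44% and 13.2% against control, 6.03% and 12.8% against clone 2), and 0 were called in either with the length and GC correction. Citrate synthase (Cs) rose in both (0.49 against control and 0.45 against clone 2), with Mdh2 (0.81) and Dlst (0.52) against control and Suclg1 (0.48) against clone 2. Dld, the shared dihydrolipoamide dehydrogenase, fell in both. Its levels were 109, 57.6 and 67.2 FPKM under the control title, 84.5, 75.6 and 60.6 FPKM under clone 2 and 40.3, 28.8 and 18.5 FPKM under clone 3. The change against control was −1.40 ± 0.30 (SE), adjusted p = 0.0105, and −0.49 (adjusted p = 0.274) with the correction.

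Among 13 tested regulators of mitochondrial gene expression, Gabpa, the ETS factor whose motif was searched above, fell in clone 3. It measured 17.1, 10.9 and 12.0 FPKM under the control title, 15.0, 13.9 and 11.6 FPKM under clone 2 and 5.84, 3.60 and 2.52 FPKM under clone 3. All 3 clone 3 libraries lay below the other 6, with a change of −1.55 ± 0.26 (SE), adjusted p = 0.0026 against control and −1.58 ± 0.26 (SE), adjusted p = 0.0026 against clone 2. With the length and GC correction these were −0.68 (adjusted p = 0.0749) and −0.71 (adjusted p = 0.0627). Its exons overlap those of Atp5j on the other strand. Atp5j, at 62.0 to 92.2 FPKM, was not called in either comparison, with or without the correction. With code as a block added to the correction, Atp5j was called lower against control (−0.54 ± 0.15 (SE), adjusted p = 0.0426). Tfb2m, a factor of mitochondrial transcription, fell (−0.83) and Pprc1, a coactivator of respiratory genes, rose (0.78) against control, and Polg2, an accessory subunit of the mitochondrial DNA polymerase, rose against clone 2 (0.65). None of the 13 was called with the correction alone in either comparison. With code as a block added to the correction, Gabpa was called lower against control. Nrf1 was not called, at 0.36 against control, and Ppargc1a was at or under 0.0203 FPKM in every library. In clone 2 against control and in both code comparisons without the block, 0 genes of these lists were called in limma. With the block, C-26 against NTC called Myc lower (−1.75 ± 0.26 (SE), adjusted p = 0.0076). Also lower were Ndufaf4 (−0.82), Sco1 (−0.56) and Dld (−0.75), and Ndufaf3 was higher (1.27). Over all genes, that fit called 6.75% higher and 7.36% lower.

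The exons of 24 of the 84 genes overlap those of another annotated gene, 22 of them on the other strand, among the called genes Ndufs3, Ndufa11, Ndufs6, Uqcrb, Cox4i1, Cox6a2 and Atp5a1. The partner of Uqcrb, Gm10767, stayed at or under 0.364 FPKM, that of Cox4i1, Emc8, ran from 8.21 to 19.4 FPKM, and that of Atp5a1, Haus1, from 10.7 to 25.3 FPKM.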

How the data were processed

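Polyadenylated RNA of 9 libraries of 4T1 cells was sequenced as 100-nt paired ends, per the labels' protocols. The authors deposited FPKM per gene, made with TopHat2 2.0.13, Bowtie2 2.2.3 and Cufflinks 2.2.1 on mm10, per the submitters' processing notes. A second deposited table lists 13414 genes above 0 in all libraries with log2(FPKM + 1) values that the authors quantile-normalized, and, per the file headers, the authors' folds (a signed score), test statistics and p-values between codes. Depth as read counts was not given, so no counting interval is stated.

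Here log2(FPKM + 1) was tested with limma 3.58.1 (R 4.3.3, intensity trend, Benjamini-Hochberg adjustment, called below 0.05) over 10783 genes at 1 FPKM or more in at least 3 libraries, with all 9 libraries in the fit. Fold changes are on the log2(FPKM + 1) scale, which understates changes of low genes. For codes the title group was also fitted as a block, since same-title libraries deviated together (9 of 9 correlations, 0.26 to 0.88). The length and GC correction used natural splines with 4 degrees of freedom on 10708 genes with GENCODE M21 transcripts. Steps were tested on simulated data. Alternatives were another pseudocount, no filter, other scalings, the correction, blocks, smaller fits and each library left out. Genes named are up to 6 called subunits per direction and comparison, the highest and lowest of each complex, isoform pairs, the Sdh genes and up to 4 called genes per list. Members and lists were chosen with earlier results of these data known. Results for some called genes are not reported here.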

Additional observations from a re-analysis of the deposited data

Results flagged for a closer look

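The difference of clone 3 from control changed sign with the code. The median log2 difference over the 77 tested subunits was −0.0851 between the NTC libraries, 0.4597 between the C-20 libraries and 0.2123 between the C-26 libraries. This difference between codes was not tested, since each combination of title and code is 1 library.

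The differences between codes likewise changed sign with the title. For C-20 against NTC the median was −0.1391 in control, −0.0988 in clone 2 and 0.3044 in clone 3. For C-26 against NTC it was −0.2183 in control, 0.036 in clone 2 and 0.0074 in clone 3. Neither was tested, and control NTC, the library with the highest Uqcrq, enters 1 value of each of the 3 comparisons.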

How the results depend on the processing

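Clone 3 against control called 15 subunits. The total called was 7 with the authors' quantile-normalized values, 5 with the length and GC correction (3 of them among the 15), 7 with that correction and the replicate block, and 8 with only the compared groups in the fit. Leaving out each library gave 4 to 21. Over all genes, the correction with the block called 1584 of 10708 here and 1888 in clone 3 against clone 2. The median over the subunits became 0.015 with quantile-normalized values. For clone 3 against clone 2 (14 called) the counts were 5, 2, 7 and 29 in the same order, 25 with the replicate block and 1 to 33 with a library left out, and the median became 0.1925 with quantile-normalized values and 0.1975 with the correction, with or without the block. The median of clone 2 against control ran from −0.2347 to −0.0943 with a library left out, the latter without control NTC. Atp5s turned to 0.5048 in clone 3 against control with the correction, with or without the block. The cause of these shifts was not tested.

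Across titles, same-code libraries correlated at 0.48 to 0.55 for NTC, 0.27 to 0.56 for C-26 and −0.24 to 0.21 for C-20. Codes thus paired the titles in part, and the main title fits carry no block of code. With code as replicate block there were 16 calls for clone 3 against control, 25 for clone 3 against clone 2 and 0 for clone 2 against control. Over all 10783 genes the same fits called 3330, 3176 and 3. For C-26 against NTC, 0 calls became 7 with the title group as replicate block and 9 with the length and GC correction added. Over all genes the calls were 15 and 1522 of 10783, and 1876 of 10708 with the correction added. With the block, leaving out a library gave 0 to 7 subunits, and leaving out the clone 3 libraries 0. For C-20 against NTC it gave 0 to 1. The combined correction and block, and the left-out libraries within the block, were chosen after seeing the data. Another pseudocount, no filter and median ratio scaling kept every count within 1.5 times. Unknown depth limits the precision of the low genes, Cox6a2 and Atp5s.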
